A study of Mus musculus with 9 samples.

Results

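The genes described here make and sense eicosanoids, the lipid mediators formed from arachidonic acid. They are the 9 mouse genes Pla2g4a, Alox5, Alox5ap, Ltc4s, Ptgs1, Ptgs2, Ptges, Hpgds and Ltb4r1, chosen by name for their place in the pathway. All 9 were found among the 27179 gene identifiers of the count table. Spinal cord RNA from C57BL/6 mice was sequenced as poly-A selected libraries in 3 groups of 3. EAE+EHP-101 mice, called treated mice below, had experimental autoimmune encephalomyelitis (EAE) and received oral EHP-101 (20 mg/kg). EAE mice had the disease without the compound, and Control mice had neither. EAE is an immune-mediated model of multiple sclerosis in which leukocytes enter the spinal cord. EHP-101 is a compound known by a code name. The series set out to find the expression changes that the treatment produces, and for the mice the age, sex, method of disease induction and day of sampling were not given in the sources used here.

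Eicosanoid synthesis starts when a phospholipase frees arachidonic acid from membranes. Lipoxygenase turns it into leukotrienes, which attract leukocytes and make vessels leaky, and cyclooxygenase turns it into prostaglandins and thromboxane, which act on vessels, pain fibres and immune cells. In the central nervous system, microglia and blood-derived myeloid cells are known sources of several of these enzymes.

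Libraries held 30448507 to 32661741 counts. On the first principal component of all genes tested, with 67.0% of the variance, treated libraries lay at -22.2, 8.36 and 15.2, EAE libraries between 36.0 and 50.1, and Control libraries between -47.2 and -40.9. Treated replicate 1, at -22.2, was the treated library nearest the Control libraries, and its values are given beside the results below. The deviation of each library from the mean of all 9 libraries also followed transcript length across genes. Its Spearman correlations with length were -0.335 to -0.0300 in treated, -0.327 to -0.259 in EAE and 0.244 to 0.410 in Control libraries. The signs are relative to the other libraries. Calls that end when this trend is removed are named below.

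The stretches of 250 bases before the RefSeq start of 5 of the genes (build GRCm38.p6, 5′ to 3′ on the strand of the gene) are shown. Ptgs1 (chr2:36230176-36230425, plus strand), Hpgds (chr6:65144731-65144980, minus strand), Alox5 (chr6:116461179-116461428, minus strand) and Ltc4s (chr11:50238533-50238782, minus strand) are 4 of the 5 genes with the closest profiles, and Ptgs2 (chr1:150099781-150100030, plus strand) is the inducible cyclooxygenase, which no test called. Capitals mark matches to the motifs searched.
Ptgs1: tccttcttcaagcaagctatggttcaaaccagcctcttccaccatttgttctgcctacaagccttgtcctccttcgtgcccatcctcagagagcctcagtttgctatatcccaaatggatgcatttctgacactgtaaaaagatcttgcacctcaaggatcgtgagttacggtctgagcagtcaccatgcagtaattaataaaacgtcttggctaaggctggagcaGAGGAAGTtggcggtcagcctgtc
Hpgds: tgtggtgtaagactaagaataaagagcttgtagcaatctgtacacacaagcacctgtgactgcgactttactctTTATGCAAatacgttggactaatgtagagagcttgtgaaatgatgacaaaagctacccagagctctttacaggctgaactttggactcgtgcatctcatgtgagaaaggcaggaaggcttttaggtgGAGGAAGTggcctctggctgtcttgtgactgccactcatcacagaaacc
Alox5: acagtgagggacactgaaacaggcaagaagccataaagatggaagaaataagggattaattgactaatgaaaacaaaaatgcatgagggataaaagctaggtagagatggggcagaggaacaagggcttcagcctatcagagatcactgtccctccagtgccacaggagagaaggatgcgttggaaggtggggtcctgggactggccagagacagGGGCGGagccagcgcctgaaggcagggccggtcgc
Ltc4s: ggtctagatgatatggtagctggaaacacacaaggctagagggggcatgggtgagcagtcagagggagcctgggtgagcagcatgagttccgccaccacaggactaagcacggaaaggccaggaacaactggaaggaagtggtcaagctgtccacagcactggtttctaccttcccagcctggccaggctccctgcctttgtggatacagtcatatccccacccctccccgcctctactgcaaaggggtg
Ptgs2: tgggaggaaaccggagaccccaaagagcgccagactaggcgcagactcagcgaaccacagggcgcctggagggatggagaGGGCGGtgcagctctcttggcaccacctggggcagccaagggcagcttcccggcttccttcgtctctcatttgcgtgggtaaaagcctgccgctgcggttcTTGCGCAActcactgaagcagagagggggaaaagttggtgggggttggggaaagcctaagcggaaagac

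A promoter was in the RefSeq table for 8 of the 9 genes, with 2 for Pla2g4a. Positions count from the RefSeq start, with negative values before it, and windows reached 250 bases before and 50 from the start. For Ptgs2 and Ltc4s the counted exons begin downstream of that start, at 150100124 and 50238471. GAGGAAGT, a form of the site of the myeloid factor PU.1, was matched in Ptgs1 at -24 and in Hpgds at -49, and on the other strand in Ltb4r1 at 1. The motif was present in 3.20% of the 32851 mouse promoters searched in the same way. The GC box of Sp1, GGGCGG, was matched in Alox5 at -35, in Ptgs2 at -170, in Ptges at -53 and -42, and on the other strand in Ltb4r1 at -31, and 35.7% of all promoters held it. TTGCNNAA, bound by C/EBP factors, was matched in Ptgs2 at -69 and in Hpgds at -176 on the other strand, and was found in 10.8% of promoters. Ltc4s held none of the motifs. The other motifs were searched on both strands too. Ptgs2 matched TGACG, a short form of the cAMP element (20.8% of promoters), on the other strand at 14 and ACGTG, the hypoxia element (19.6%), at 17 and 18, where the motif is read on both strands. Pla2g4a matched AGGTCA, a single unit of the PPAR element (16.3%), at -206 of one promoter, and the TATA box TATAAA (13.6%) on the other strand at -200 of the second. TGANTCA (AP-1, 7.81%), TGACGTCA (the whole cAMP element, which contains TGACG, 1.79%), GGANTTTCC (NF-kB, 1.25%), GAAANNGAA (interferon element, 8.56%) and GGTCANAGG (PPAR element, which can overlap AGGTCA, 1.72%) had no match in these windows. Matches are descriptions of sequence only.

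In EAE spinal cord, 6 of the 8 genes that passed the filter on low counts were higher than in Control and none was lower. All 3 leukotriene synthesis genes rose, together with Ptgs1, Ptges and Hpgds of the prostaglandin branch, by 1.5-fold to 2.57-fold. The release enzyme Pla2g4a and the inducible cyclooxygenase Ptgs2 did not pass the test. The receptor gene Ltb4r1 had too few counts to be tested. Over all 16749 genes tested, 37.0% were called in this comparison at an adjusted p under 0.05 (edgeR quasi-likelihood test, Benjamini-Hochberg), 20.2% as higher and 16.7% as lower. The median log2 fold change was 0.99 over the 8 genes and 0.01 over all genes tested. EAE and Control libraries did not overlap for 6 of the 8, with EAE higher in each, and for 46.6% of all genes tested (25.6% with EAE higher and 21.1% with EAE lower).

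With EHP-101, 3 of the 8 genes tested were lower than in EAE mice. These were Ptgs1, Hpgds and Alox5ap, which fell by 0.56, 0.95 and 0.74 on the log2 scale, and none of the 8 was higher by the test. Of all genes tested 5.24% were called in this comparison, 4.81% as lower and 0.430% as higher. The median log2 fold change was -0.51 over the 8 genes and -0.0011 over all. Treated and EAE libraries did not overlap for 7 of the 8 genes, all but Ptgs2, and in 6 of the 7 the treated libraries were the lower ones. Over all genes tested they did not overlap for 27.6%, with treated libraries lower for 16.9% and higher for 10.7%. Against Control, 3 of the 8 were higher in treated mice (Ltc4s, Alox5ap and Ptgs1), where 19.8% of all genes were called, 9.96% as higher and 9.82% as lower. The median log2 fold change in that comparison was 0.36 over the 8 genes and 0.01 over all, and treated and Control libraries did not overlap for 3 of the 8, with treated higher in each, and for 36.5% of all genes tested (19.0% with treated higher and 17.5% with treated lower). The comparisons share libraries, so their values for a gene are not independent. RNA came from whole tissue, in which fewer cells of a type and less RNA per cell cannot be told apart.

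**Figure D1:**
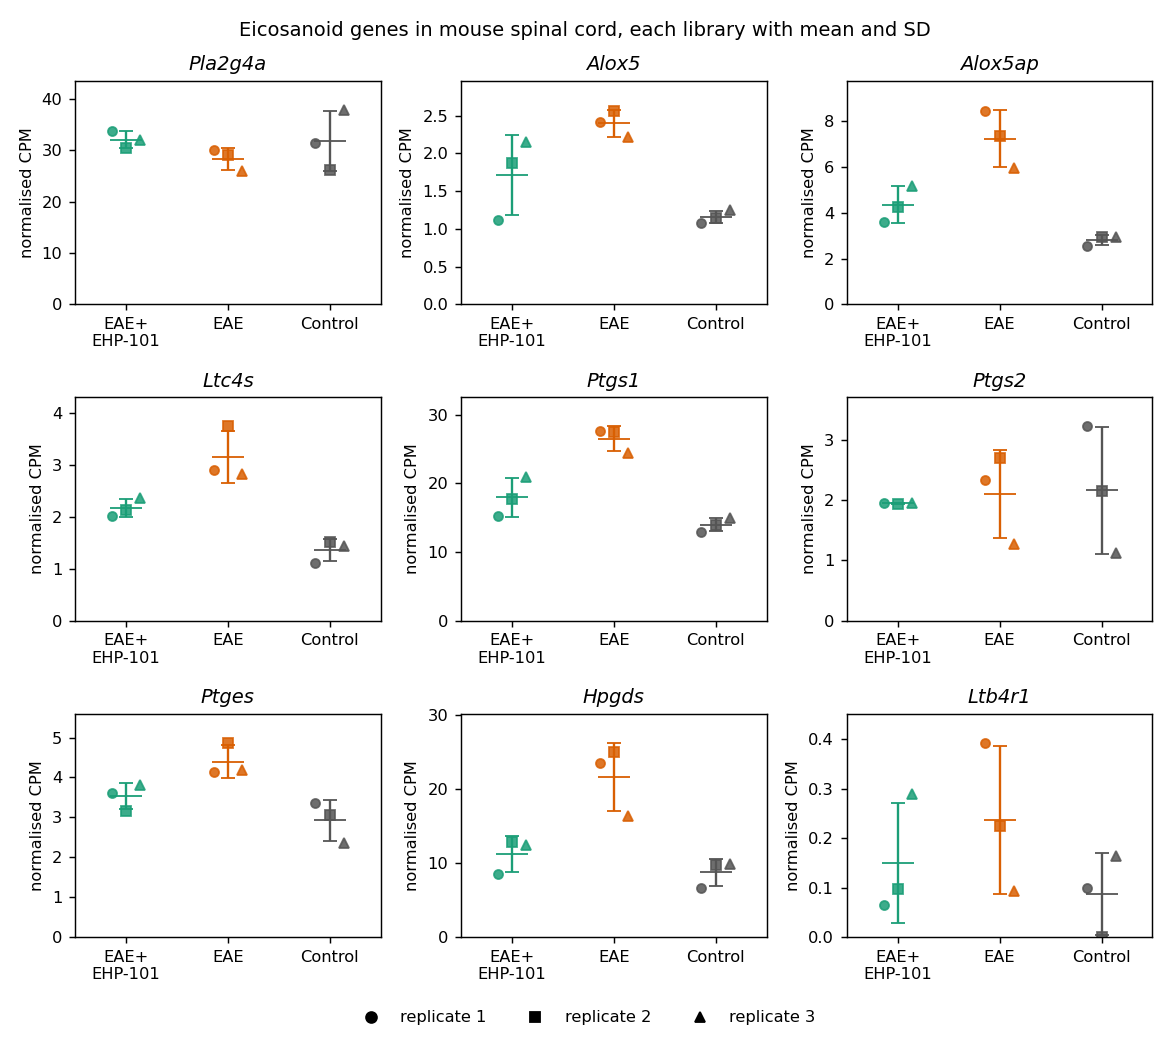
Normalised counts per 1000000 counts (CPM, linear axes from 0, each panel with its own scale) of the 9 genes in each library. Points are libraries, with EAE+EHP-101 left, EAE in the middle and Control right, and bars show mean and SD of n = 3. EAE libraries lie above all Control libraries for Alox5, Alox5ap, Ltc4s, Ptgs1, Ptges and Hpgds, whereas Ptgs2 and Pla2g4a overlap.

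Alox5ap encodes the membrane protein FLAP, which presents arachidonic acid to 5-lipoxygenase (gene 11690, chromosome 5, 149265058 to 149288047, plus strand, mm10). Its level was 3.58, 4.27 and 5.19 CPM in treated mice, 8.43, 7.34 and 5.96 CPM in EAE mice and 2.56, 2.94 and 2.95 CPM in Control mice. The 3 groups did not overlap, with treated libraries between the other groups. EAE mice had 2.57-fold more Alox5ap than Control mice (log2 1.36, SE 0.17, adjusted p = 0.000204). Treated mice had less than EAE mice (log2 -0.74, SE 0.16, adjusted p = 0.0247) and more than Control mice (log2 0.62, SE 0.18, adjusted p = 0.0315). The exons of Alox5ap share 189 bases with a gene on the opposite strand, which had 12 to 23 counts in each library.

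Alox5 encodes 5-lipoxygenase itself, which makes the first leukotriene, LTA4 (gene 11689, chromosome 6, 116410071 to 116461178, minus strand). It was measured at 1.12, 1.88 and 2.15 CPM in treated mice, 2.42, 2.56 and 2.21 CPM in EAE mice and 1.08, 1.14 and 1.24 CPM in Control mice. EAE libraries lay above all Control libraries, and treated replicate 1 lay within the Control range while the other treated libraries lay just under the EAE range. The rise in EAE over Control was 2.07-fold (log2 1.05, SE 0.23, adjusted p = 0.00462). The difference of treated from EAE mice was -0.48 on the log2 scale (SE 0.22, adjusted p = 0.311) and did not pass the test. Against Control the treated level was 0.57 higher on the log2 scale (SE 0.24, adjusted p = 0.115), which became 0.79 with adjusted p = 0.0175 without treated replicate 1. The exons share 435 bases with an opposite-strand gene, which had 0 counts in all 9 libraries.

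Ltc4s encodes leukotriene C4 synthase, which joins LTA4 to glutathione and so begins the cysteinyl leukotrienes (gene 17001, chromosome 11, 50236472 to 50238471, minus strand). Levels were 2.02, 2.13 and 2.37 CPM in treated mice, 2.90, 3.75 and 2.84 CPM in EAE mice and 1.12, 1.52 and 1.44 CPM in Control mice. As for Alox5ap, the 3 groups did not overlap and the treated libraries lay between. Ltc4s was 2.32-fold higher in EAE than in Control mice (log2 1.21, SE 0.18, adjusted p = 0.000572). The lower level in treated than in EAE mice did not pass the test (log2 -0.54, SE 0.18, adjusted p = 0.123), while the difference of treated from Control mice did (log2 0.67, SE 0.19, adjusted p = 0.0311).

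Ptgs1 encodes cyclooxygenase-1, the constitutive enzyme that makes PGH2, the parent of all prostanoids (gene 19224, chromosome 2, 36230426 to 36252269, plus strand). Its level was 15.3, 17.7 and 20.9 CPM in treated mice, 27.6, 27.4 and 24.4 CPM in EAE mice and 12.97, 13.98 and 14.9 CPM in Control mice. No libraries of different groups overlapped, and treated replicate 1 lay closest to the Control libraries. EAE mice had 1.90-fold more Ptgs1 than Control mice (log2 0.92, SE 0.11, adjusted p = 0.000151). Treated mice had less than EAE mice (log2 -0.56, SE 0.11, adjusted p = 0.0115) and more than Control mice (log2 0.36, SE 0.11, adjusted p = 0.0426).

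Hpgds encodes the hematopoietic prostaglandin D synthase, which turns PGH2 into PGD2 and is known from microglia, mast cells and T helper cells (gene 54486, chromosome 6, 65117293 to 65144730, minus strand). It measured 8.48, 12.8 and 12.4 CPM in treated mice, 23.6, 24.96 and 16.4 CPM in EAE mice and 6.57, 9.68 and 9.89 CPM in Control mice. Treated libraries lay below all EAE libraries and overlapped the Control libraries. The EAE level was 2.48-fold that of Control mice (log2 1.31, SE 0.20, adjusted p = 0.000655). Among the 8 genes Hpgds had the largest difference of treated from EAE mice (log2 -0.95, SE 0.20, adjusted p = 0.0184), and that of treated from Control mice did not pass the test (log2 0.36, SE 0.21, adjusted p = 0.241).

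Ptges encodes microsomal prostaglandin E synthase-1, the inducible maker of PGE2 (gene 64292, chromosome 2, 30889471 to 30903297, minus strand). It had 3.61, 3.17 and 3.81 CPM in treated mice, 4.14, 4.87 and 4.18 CPM in EAE mice and 3.35, 3.07 and 2.36 CPM in Control mice. EAE libraries lay above those of both other groups, which overlapped each other. The rise in EAE over Control was 1.5-fold (log2 0.59, SE 0.16, adjusted p = 0.0136). Neither the difference of treated from EAE mice (log2 -0.31, SE 0.16, adjusted p = 0.361) nor that of treated from Control mice (log2 0.27, SE 0.16, adjusted p = 0.256) passed the test.

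Ptgs2 encodes cyclooxygenase-2, the inducible cyclooxygenase, which neurons also express (gene 19225, chromosome 1, 150100124 to 150108017, plus strand). It had 1.95, 1.94 and 1.95 CPM in treated mice, 2.33, 2.69 and 1.28 CPM in EAE mice and 3.22, 2.15 and 1.11 CPM in Control mice. The groups overlapped throughout, and the spread was widest in Control mice, whose counts were 98, 68 and 34, against 61, 60 and 61 in treated mice and 77, 84 and 41 in EAE mice. Log2 fold changes were -0.04 (SE 0.34, adjusted p = 0.932) for EAE against Control, -0.11 (SE 0.34, adjusted p = 0.916) for treated against EAE and -0.15 (SE 0.34, adjusted p = 0.794) for treated against Control. With this SE, a change as small as the rise of Ptges was not detectable for Ptgs2.

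Pla2g4a encodes the cytosolic phospholipase A2 that frees arachidonic acid from membranes (gene 18783, chromosome 1, 149829622 to 149961284, minus strand). Its level was 33.7, 30.5 and 32.0 CPM in treated mice, 30.05, 29.0 and 25.9 CPM in EAE mice and 31.5, 26.1 and 37.8 CPM in Control mice. EAE libraries fell inside the range of the Control libraries, apart from replicate 3 at 25.9 CPM, and treated libraries lay just above the EAE libraries. Log2 fold changes were -0.16 (SE 0.12, adjusted p = 0.288) for EAE against Control, 0.18 (SE 0.12, adjusted p = 0.509) for treated against EAE and 0.01 (SE 0.11, adjusted p = 0.949) for treated against Control. Without Control replicate 2 the first of these became -0.32 and passed the test (adjusted p = 0.0316).

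Ltb4r1 encodes BLT1, the high-affinity receptor through which LTB4 attracts neutrophils and effector T cells (gene 16995, chromosome 14, 55765962 to 55768492, plus strand). Its counts were 2, 3 and 9 in treated mice, 13, 7 and 3 in EAE mice and 3, 0 and 5 in Control mice. All groups overlapped, and the count of 0 in Control replicate 2 allows a level of up to 0.0949 CPM (3 counts). Summed over the 3 libraries there were 14 counts in treated mice, 23 in EAE mice and 8 in Control mice. The ratio of EAE to Control was 2.76 with an exact 95% interval of 1.19 to 7.14, and that of treated to EAE was 0.628 with an interval of 0.299 to 1.27. These intervals cover counting error only. In a fit of 22326 genes without the filter, adjusted p was 0.230 for EAE against Control and 0.739 for treated against EAE.

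**Figure D2:**
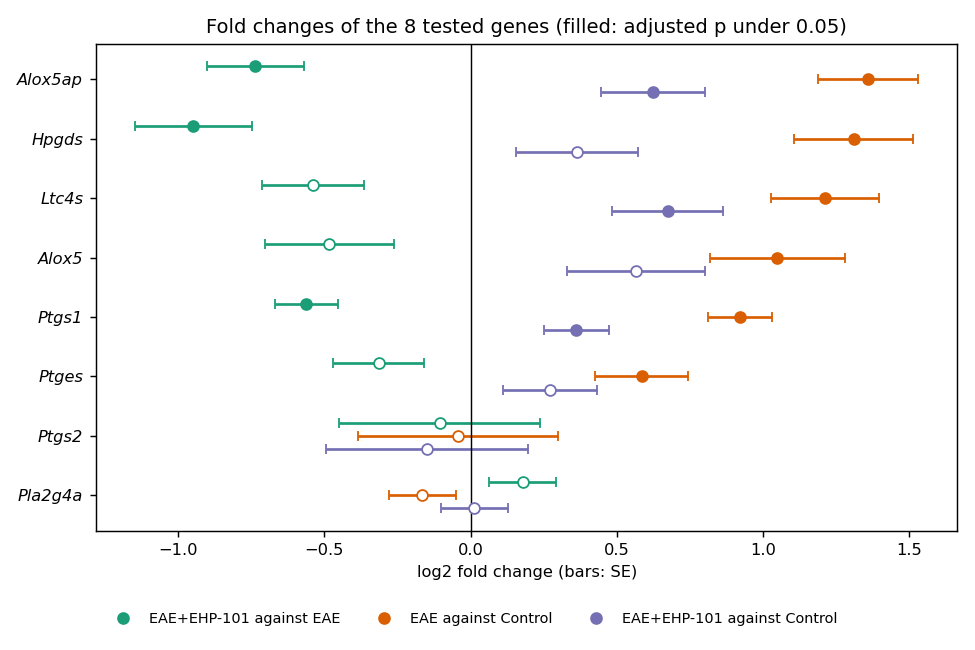
Log2 fold changes of the 8 genes tested (horizontal axis, log2 of normalised counts) with bars of 1 SE, in 3 comparisons. Filled symbols are genes called at an adjusted p under 0.05. EAE against Control runs up to 1.36 for Alox5ap and treated against EAE down to -0.95 for Hpgds.

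The rises of Alox5, Alox5ap, Ltc4s, Ptgs1 and Hpgds in EAE over Control were called in each of 11 alternative settings and with each of 9 libraries left out, and Ptges lost its call without EAE replicate 2 alone (log2 0.47, adjusted p = 0.0742). The calls of treated against EAE rested on more. Leaving out EAE replicate 1 ended those of Ptgs1 (adjusted p = 0.0558), Hpgds (0.0766) and Alox5ap (0.113), and so did leaving out EAE replicate 2, with adjusted p = 0.0642, 0.0963 and 0.100 for the same genes in that order. Without treated replicate 1 the calls of Hpgds (adjusted p = 0.0539) and Alox5ap (0.0919) ended, and without treated replicate 2 those of Ptgs1 (0.0537) and Alox5ap (0.0926). The direction stayed negative for these 3 genes in every setting run.

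The calls of treated against Control were the least stable. They ended for all 3 of Ltc4s, Alox5ap and Ptgs1 without Control replicate 1 (adjusted p = 0.0976, 0.0926 and 0.135), Control replicate 2 (0.0547, 0.0756 and 0.114), treated replicate 2 (0.0991, 0.0987 and 0.125) or treated replicate 3 (0.113, 0.133 and 0.186), and for Ptgs1 also without any 1 EAE library (0.0519 to 0.0674). With the length trend removed the adjusted p was 0.192 for Ltc4s, 0.157 for Alox5ap and 0.0692 for Ptgs1, with log2 fold changes of 0.40, 0.41 and 0.36. Over all genes, scaling by library totals alone gave 2176 higher and 1319 lower calls of treated against Control, against 1669 higher and 1645 lower with TMM factors.

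Levels were also divided by transcript length in kilobases (RPKM) to order the genes within a group. Pla2g4a ranked first and Ltb4r1 last in every group. In EAE mice Pla2g4a (9.96 ± 0.750 RPKM), Ptgs1 (9.25 ± 0.624) and Alox5ap (8.48 ± 1.45) lay within each other's spread, followed by Hpgds (6.56 ± 1.39) and Ltc4s (5.38 ± 0.865), which also overlapped (SD, n = 3). The spreads of Alox5ap and Hpgds overlapped too. Below them were Ptges (1.21 ± 0.113 RPKM), Alox5 (0.848 ± 0.0619) and Ptgs2 (0.506 ± 0.177), with Ltb4r1 at 0.170 ± 0.108. In Control mice Pla2g4a stood further apart, at 11.2 ± 2.05 RPKM against 4.88 ± 0.343 for Ptgs1, 3.30 ± 0.259 for Alox5ap, 2.64 ± 0.564 for Hpgds and 2.31 ± 0.363 for Ltc4s. There the spread of Hpgds overlapped those of Alox5ap and Ltc4s. In treated mice the order was Pla2g4a (11.3 ± 0.566 RPKM), Ptgs1 (6.26 ± 0.980), Alox5ap (5.09 ± 0.943), Ltc4s (3.70 ± 0.307) and Hpgds (3.40 ± 0.721). The spreads of Ptgs1 and Alox5ap overlapped, and so did those of Ltc4s and Hpgds. Alox5 ranked below its partner FLAP in every group, with a level of 0.606 ± 0.188 RPKM in treated, 0.848 ± 0.0619 in EAE and 0.409 ± 0.0290 in Control mice.

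Across the 9 libraries, log2 levels of Alox5, Alox5ap, Ltc4s, Ptgs1 and Hpgds followed each other, with Pearson correlations of 0.900 to 0.989 over the 10 pairs. The libraries share the group differences, and for deviations from the group means the range was 0.492 to 0.917. Ptges, also called in EAE against Control, had correlations of 0.679 to 0.804 with these 5 genes, and of -0.283 to 0.0166 for the deviations. Ptgs2 had correlations of -0.220 to 0.434 with the other genes, and of -0.235 to 0.795 for the deviations, highest with Ptges. Pla2g4a had correlations of -0.526 to -0.220 with the other genes, and of -0.414 to 0.195 for the deviations. Of the 8 genes tested, 5 were lowest within the treated group in replicate 1 and 3 in replicate 2, and 6 were highest in replicate 3.

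Genes with the most similar profile were sought among those tested with a symbol and a mean log2 CPM of at least 1, by Pearson correlation of log2 CPM over the 9 libraries. For Ptgs1 they were Itgam, which encodes the myeloid integrin CD11b (r = 0.996), the lysosomal protease gene Ctsc (0.995) and Ms4a6d (0.994). For Alox5 they were Irf9, a mediator of interferon signalling (0.996), Lst1 (0.994) and Arl5c (0.992). For Alox5ap they were Lgals9, the gene of galectin-9 (0.992), Csf2rb, the shared receptor chain for GM-CSF (0.992), and Limd2 (0.991). Hpgds was closest to Tgif1 (0.989), Dnase1l1 (0.985) and Siglecf, the gene of a sialic acid receptor (0.985). The nearest genes to Ltc4s were Cpxm2 (0.989), Cndp2 (0.986) and Necap2 (0.986), and those to Ptges were Dpp7 (0.974), Fam50a (0.970) and Naa80 (0.967). Ptgs2 was nearest to Rasl12 (0.940), Mtmr11 (0.938) and the ephrin receptor gene Ephb4 (0.905), and Pla2g4a to Map4k4 (0.973), Aktip (0.960) and Gkap1 (0.933). These lists describe likeness over 9 libraries and carry no test.

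Marker lists of several cell types moved in the same libraries. The summed level of 10 microglia markers was 414 to 554 CPM in treated, 748 to 1028 CPM in EAE and 347 to 435 CPM in Control libraries. Of those 10 genes, 8 were higher in EAE than in Control, 7 lower in treated than in EAE and 5 higher in treated than in Control mice. Over all genes tested, the shares called in these directions were 20.2%, 4.81% and 9.96%, in the same order. The 10 monocyte and macrophage markers summed to 109 to 180 CPM in treated and 517 to 708 CPM in EAE libraries. In Control libraries they summed to 96.8 to 124 CPM. Of the 10 genes, 6 were higher in EAE than in Control and 5 lower in treated than in EAE mice. Against Control, 6 were higher in treated mice. Lyz2 alone held 377, 542 and 391 CPM of the EAE sums, and 9.36, 8.16 and 10.5 CPM of the Control sums. It had 22.5, 45.1 and 63.4 CPM in treated libraries. Ly6c2 (67 counts in treated, 58 in EAE and 158 in Control mice) and Vcan (4672, 4950 and 4700) did not follow it. The 8 T cell markers summed to 1.31 to 6.79 CPM in treated, 12.5 to 15.0 CPM in EAE and 0.570 to 0.985 CPM in Control libraries, and treated replicate 1 had the lowest treated value in all of these lists. The part of these cells in the differences of the eicosanoid genes was not tested.

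Neutrophil markers followed another pattern. Their sum over 12 genes was 57.0 to 94.7 CPM in treated libraries, 51.2 to 75.5 CPM in EAE and 22.4 to 29.6 CPM in Control libraries. Of 9 tested genes, 7 were higher in treated than in Control and 1 was higher in EAE than in Control mice. In treated against EAE mice 0 were higher and 1 was lower, with a median log2 fold change of 0.84 over the 9. Over all genes tested 9.96%, 20.2%, 0.430% and 4.81% were called in these directions, in the same order. Counts within the list did not move alike, with 1662 counts of Csf3r, a receptor also found on other myeloid cells, in treated, 3466 in EAE and 791 in Control mice, and 827, 475 and 175 counts of S100a8 in the same groups. Csf3r was the gene called lower, and no other gene of the list had fewer counts in treated than in EAE mice. S100a9 (1530, 728 and 341 counts), Camp (252, 110 and 47), Ngp (626, 307 and 120) and Retnlg (146, 65 and 27) were highest in treated mice. The highest neutrophil sum, 94.7 CPM, was in treated replicate 1, where S100a8 had 15.7 CPM and S100a9 29.5 CPM. Csf3r had 10.9 CPM in that library, against 20.0 and 22.4 CPM in treated replicates 2 and 3. The part of neutrophils in the levels of the eicosanoid genes was not tested. Mast cells, another known source of Hpgds, Ltc4s and Alox5, had few transcripts. Their 10 markers, with those of basophils, summed to 27.3 to 29.7 CPM in treated, 23.4 to 28.4 CPM in EAE and 22.5 to 33.7 CPM in Control libraries, of which Kit and Hdc, also expressed by neurons or other cells, were the only 2 that passed the filter. Tpsab1 had 0 counts in all 9 libraries, Mcpt4, Cma1 and Ms4a2 had 0 in 8 of 9, and Cpa3 did not exceed 0.160 CPM in any. Of the eosinophil markers Siglecf had 150 counts in treated, 496 in EAE and 89 in Control mice, while the granule genes Prg2, with 22, 11 and 23 counts in the same groups, and Epx, with 51, 58 and 49, did not follow it. The 6 endothelial markers, whose cells also express cyclooxygenases, summed to 121 to 139 CPM in treated, 61.0 to 108 CPM in EAE and 133 to 223 CPM in Control libraries.

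**Figure D3:**
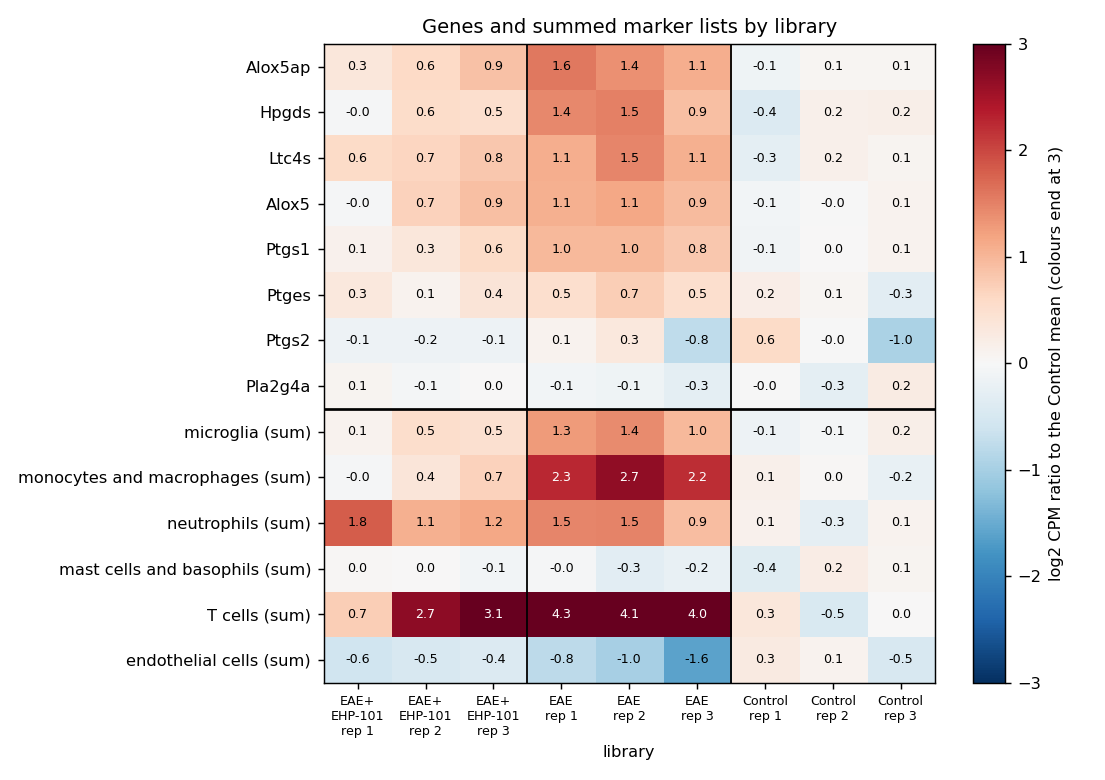
Log2 ratio of CPM to the mean of the Control libraries, for the 8 genes tested (rows above the line) and the summed markers of 6 cell types (rows below), in the 9 libraries (columns, EAE+EHP-101 left, then EAE, then Control). Colours end at 3 in either direction. Treated replicate 1 is close to Control for Alox5, Hpgds and Ptgs1. Its sum of neutrophil markers, which did not move alike, is the highest of all libraries.

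The rest of the eicosanoid pathway was read from 75 further genes in 9 lists by role, of which 63 were tested. In EAE against Control 23 were higher and 5 lower, or 44.4% of the 63, with a median log2 fold change of 0.15. In treated against EAE none was higher and 9 were lower (14.3%, median -0.12), and in treated against Control 9 were higher and 5 lower (22.2%, median 0.10). The calls over all genes given above, 37.0%, 5.24% and 19.8%, are the comparison for these shares and for the lists below. In EAE against Control, 15.4% of the phospholipases and related genes, 14.3% of the prostanoid receptors and 25% of the other lipoxygenases were called. These shares lie under 37.0%, and the other lists had 50% to 100%. The EAE against Control call was kept in every setting by 16 of 28 genes, that of treated against EAE by 6 of 9 and that of treated against Control by 2 of 14. For EAE against Control, Dpep2, Cysltr2 and Gpr18 were lost only with the filter of 1 CPM in 3 libraries, which they did not pass. With the length trend removed, 22 of the 28, 9 of the 9 and 6 of the 14 calls stood in these comparisons.

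Of 13 phospholipases and related genes tested, 2 rose in EAE over Control (15.4%, where 20.2% of all genes tested were higher). They were Pla2g15, the lysosomal phospholipase (11.3 ± 1.73 CPM in treated, 18.8 ± 1.99 in EAE and 8.76 ± 0.266 in Control mice, log2 1.10, adjusted p = 8.4e-05), and Pla2g12a, a secreted enzyme (log2 0.29, adjusted p = 0.0258). Pla2g15 was also the only one of the 13 that fell in treated against EAE mice (log2 -0.73, adjusted p = 0.00470), and none differed between treated and Control mice. The call of Pla2g12a ended with the length trend removed and without EAE replicate 2 or 3 or Control replicate 1 or 2, with adjusted p up to 0.214.

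Among the 8 terminal prostanoid synthases, 5 rose in EAE over Control. Tbxas1, thromboxane A synthase, had 3.65, 5.11 and 5.73 CPM in treated mice, 10.1, 12.2 and 9.64 CPM in EAE mice and 2.76, 3.35 and 3.01 CPM in Control mice. These groups did not overlap, and the log2 fold changes were 1.80 (SE 0.17, adjusted p = 4.1e-05) for EAE against Control, -1.14 (SE 0.16, adjusted p = 0.00312) for treated against EAE and 0.67 (SE 0.18, adjusted p = 0.0250) for treated against Control. The last of these calls ended with the length trend removed (adjusted p = 0.0582) and without any 1 Control library or treated replicate 2 or 3 (adjusted p up to 0.110). Ptgds, the lipocalin-type prostaglandin D synthase of meninges and oligodendrocytes, had 467 ± 23.7 CPM in treated, 681 ± 144 in EAE and 396 ± 39.2 in Control mice, with log2 0.78 (adjusted p = 0.000827) for EAE against Control and -0.54 (adjusted p = 0.0291) for treated against EAE. The fall of Ptgds ended without EAE replicate 2, Control replicate 2 or any 1 treated library, with adjusted p up to 0.102. Ptges2 (log2 0.25, adjusted p = 0.00469) and Akr1b3, an aldose reductase with prostaglandin F synthase activity (log2 0.39, adjusted p = 0.0182), also rose in EAE over Control. The call of Akr1b3 ended with the length trend removed (adjusted p = 0.132) and without replicate 1 or 2 of either group (adjusted p up to 0.187). In treated against Control mice, Ptges2 (log2 0.25), Tbxas1 and Prxl2b, a prostamide and prostaglandin F synthase (log2 0.26), were higher and Ptges3, the co-chaperone with PGE synthase activity, was lower (log2 -0.40, adjusted p = 0.0433). With the length trend removed the calls of Ptges2 (adjusted p = 0.0595) and Prxl2b (0.762) against Control ended, as they did without Control replicate 2 or treated replicate 2 or 3. The call of Ptges3 ended without Control replicate 1 or 3, EAE replicate 3 or any 1 treated library (adjusted p up to 0.116). The call of Prxl2b in EAE against Control ended with the length trend removed (adjusted p = 0.590), where the difference turned negative.

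Of 6 genes for prostanoid transport and breakdown, 3 rose in EAE over Control, namely Hpgd, Ptgr1 (log2 0.69, adjusted p = 0.00518) and Cbr3 (log2 0.48, adjusted p = 0.0364). Hpgd, whose product inactivates PGE2, had 14.1 ± 1.09 CPM in treated, 21.5 ± 0.964 in EAE and 12.9 ± 2.80 in Control mice. Its log2 fold changes were 0.74 (adjusted p = 0.00128) for EAE against Control and -0.61 (adjusted p = 0.0184) for treated against EAE. The fall lost its call without EAE replicate 1, EAE replicate 2 or treated replicate 1 (adjusted p up to 0.0934). Of 7 prostanoid receptors tested, Ptger4, the EP4 receptor for PGE2, rose in EAE over Control (log2 0.50, adjusted p = 0.0202) and fell in treated against EAE mice (log2 -0.63, adjusted p = 0.0291), with levels of 5.15 ± 1.04 CPM in treated, 7.99 ± 0.802 in EAE and 5.66 ± 0.460 in Control mice. Its fall was called in 3 of the 9 fits that leave out 1 library, with adjusted p up to 0.156, and leaving out replicate 2 of EAE or of Control ended the call of its rise (adjusted p up to 0.107). The rise of Cbr3 was called in 7 of 11 settings and in 3 of those 9 fits, and was not called with the length trend removed (adjusted p = 0.181).

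Leukotriene synthesis and breakdown held 9 tested genes, of which 5 rose in EAE over Control and 3 fell in treated against EAE mice. The call of Cyp4f14 in EAE against Control ended with the length trend removed (adjusted p = 0.0734). Cyp4f18, whose product inactivates LTB4 in mouse neutrophils, had 1.12 ± 0.353 CPM in treated, 4.33 ± 0.668 in EAE and 0.498 ± 0.194 in Control mice, with log2 3.11 (SE 0.29, adjusted p = 3.7e-05) for EAE against Control and -1.94 (SE 0.26, adjusted p = 0.00240) for treated against EAE. Cotl1, a coactosin that binds 5-lipoxygenase, had 87.5 ± 5.51 CPM in treated, 131 ± 18.2 in EAE and 64.5 ± 0.593 in Control mice, with log2 1.03 (adjusted p = 3.3e-05) and -0.59 (adjusted p = 0.00384) in the same comparisons. Ggt5, which cleaves glutamate from LTC4, had 9.14 ± 2.27 CPM in treated, 19.6 ± 3.21 in EAE and 6.07 ± 1.22 in Control mice, with log2 1.69 (adjusted p = 0.000116) and -1.10 (adjusted p = 0.00637). The calls of Cyp4f18, Cotl1 and Ggt5 in these 2 comparisons held in all 20 settings. Dpep2, a dipeptidase that makes LTE4, had 12 counts in treated, 44 in EAE and 4 in Control mice and rose in EAE over Control (adjusted p = 0.00175). In treated against Control mice Cotl1 (log2 0.44), Cyp4f18 (log2 1.17) and Mgst3 (log2 0.25) were higher, and the sign of Mgst3 turned with the length trend removed. The call of Cyp4f18 against Control ended in that setting (adjusted p = 0.0613) and without Control replicate 2 or 3 or treated replicate 2 or 3 (adjusted p up to 0.119). That of Cotl1 ended without treated replicate 2 (adjusted p = 0.0569), and that of Mgst3 stood in 1 of 9 fits that leave out a library. Lta4h, the enzyme that makes LTB4, had 51.9 ± 0.956 CPM in treated, 53.6 ± 0.276 in EAE and 53.0 ± 1.42 in Control mice and passed no test. It was named after its values were seen.

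The cysteinyl leukotriene receptors differed in direction. Cysltr1 had 0.960, 1.13 and 1.73 CPM in treated mice, 2.63, 2.31 and 2.18 CPM in EAE mice and 0.788, 1.17 and 1.38 CPM in Control mice, and rose in EAE over Control (log2 1.09, SE 0.25, adjusted p = 0.00650). Cysltr2, which is known from endothelial cells, had 0.352, 0.291 and 0.448 CPM in treated mice, 0.393, 0.224 and 0.312 CPM in EAE mice and 1.12, 0.886 and 0.721 CPM in Control mice, and was lower in EAE (log2 -1.53, SE 0.30, adjusted p = 0.00252) and in treated mice (log2 -1.31, SE 0.30, adjusted p = 0.0140) than in Control mice. Its Control libraries lay above all others. All 6 endothelial markers were lower in EAE than in Control mice, as were 16.7% of all genes tested. In treated against Control 0 of the 6 were called, and 19.8% of all genes tested. The part of endothelial cells in the level of Cysltr2 was not tested. The call of Cysltr2 for treated mice ended without treated replicate 2 (adjusted p = 0.0733). Gpr17, an oligodendrocyte progenitor receptor related to them, rose by 0.35 on the log2 scale in EAE over Control (adjusted p = 0.00734). None of the 3 receptors passed the test for treated against EAE mice, where Cysltr1 had log2 -0.90 (adjusted p = 0.0679).

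Of 4 other lipoxygenases, Alox8 was lower in EAE than in Control mice (log2 -0.51, adjusted p = 0.00934) and in treated than in Control mice (log2 -0.42, adjusted p = 0.0399). The treated call ended with the length trend removed (adjusted p = 0.0679), with library totals, and without Control replicate 2 or 3, EAE replicate 1 or treated replicate 2 or 3 (adjusted p up to 0.143). Of 6 epoxygenase genes, the epoxide hydrolase Ephx1 was higher (log2 0.68) and Cyp4x1 (log2 -0.82) and Cyp2j9 (log2 -0.29) were lower in EAE than in Control mice, and the same 3 were called in the same directions in treated against Control mice (log2 0.38, -0.85 and -0.25). Against Control the treated call of Cyp4x1 held in all 20 settings. That of Ephx1 ended with the length trend removed (adjusted p = 0.0572) and without replicate 1 or 2 of Control or 2 or 3 of treated mice, and that of Cyp2j9 with the replicate block and without Control replicate 1 or treated replicate 2 or 3 (adjusted p up to 0.0974). Among 7 genes of resolution, which ends inflammation, 4 were higher and 1 lower in EAE than in Control mice. Anxa1, the gene of annexin A1, had 2.75, 1.26 and 1.73 CPM in treated mice, 3.32, 3.97 and 3.18 CPM in EAE mice and 0.296, 0.285 and 0.917 CPM in Control mice. It rose in EAE over Control (log2 2.80, SE 0.40, adjusted p = 0.000381) and in treated over Control mice (log2 1.94, SE 0.41, adjusted p = 0.0116), and the difference of treated from EAE mice did not pass the test (log2 -0.86, SE 0.33, adjusted p = 0.208). Fpr2, the receptor of annexin A1, was higher in treated than in Control mice (log2 0.82, adjusted p = 0.0384). That call was made in 4 of 11 settings and in 1 of 9 fits that leave out a library. It ended with the length trend removed (adjusted p = 0.105), and so did the call of Fpr2 in EAE against Control (adjusted p = 0.0665). Cmklr1, a receptor for resolvin E1 and chemerin on macrophages, had 6.52 ± 1.34 CPM in treated, 11.8 ± 1.14 in EAE and 5.53 ± 0.653 in Control mice and was called in EAE against Control (log2 1.09) and in treated against EAE (log2 -0.85). Gpr18 rose in EAE over Control with 14 counts in treated, 56 in EAE and 6 in Control mice (adjusted p = 0.00338), and Lgr6, a receptor for maresin 1, was lower in EAE than in Control mice (log2 -0.83, adjusted p = 0.0161), a call lost when replicate 2 of EAE or of Control was left out (adjusted p up to 0.0625).

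**Figure D4:**
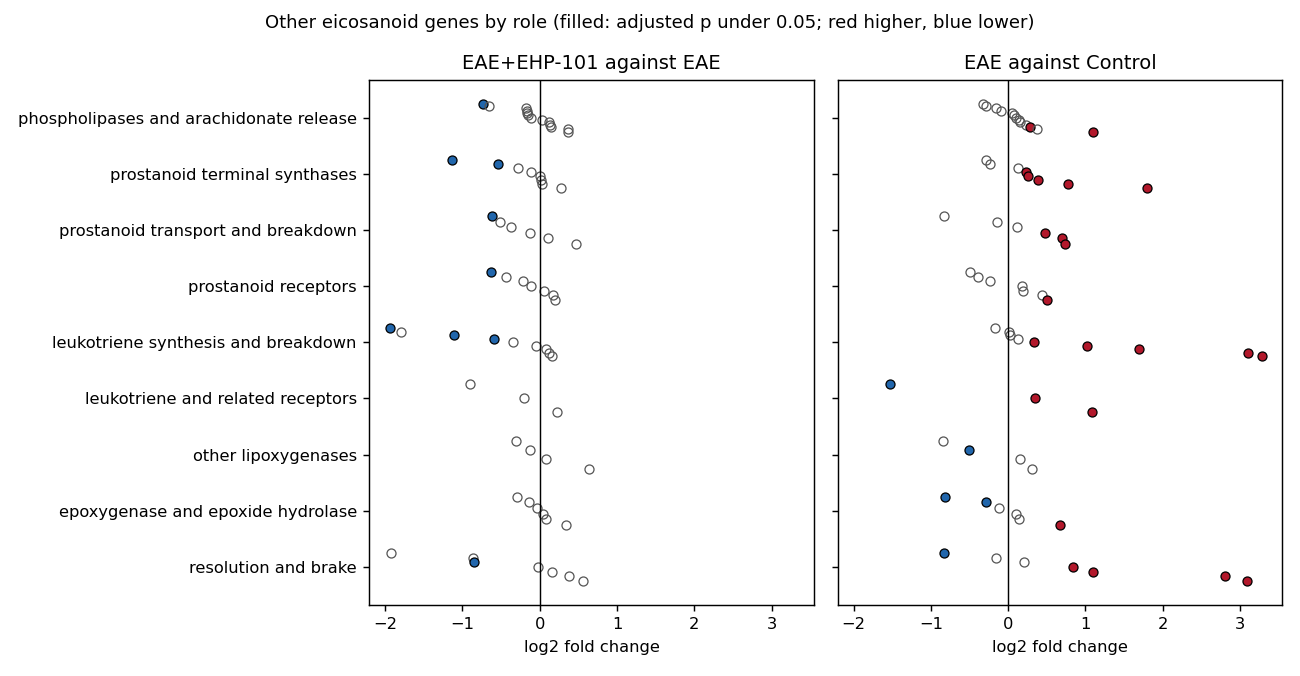
Log2 fold changes of the tested genes of the pathway by role (rows), in EAE+EHP-101 against EAE (left panel) and EAE against Control (right panel), with 1 point per gene and filled points for genes called at an adjusted p under 0.05. All 9 genes called in treated against EAE lie below 0, and 23 of the 28 called in EAE against Control lie above 0.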

How the data were processed

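RNA was measured in 9 spinal cord libraries, 3 per group. The deposited table holds raw read counts per gene under Entrez identifiers, per the file headers, from 1 µg of RNA per sample, a stranded poly-A kit and single-end reads of 50 bases, per the labels' protocols. Build mm10, featureCounts 1.6.1, HISAT2 2.1.0, Trimmomatic 0.36 and DESeq2 1.20.0 appear without their roles, per the submitters' processing notes. How strand and multiply mapped reads were treated was not given in the sources used here, so reads of overlapping genes on opposite strands and of close relatives such as the Cyp4f and Cyp2j genes may not be told apart.

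Symbols were matched through RefSeq (25275 of 27179 identifiers). In R 4.3.3, edgeR 4.0.16 kept 16749 genes (filterByExpr), scaled libraries by TMM factors and fitted the 3 groups of all 9 libraries in a single quasi-likelihood model. A gene was called at a Benjamini-Hochberg adjusted p under 0.05 over all genes tested. SE was obtained by dividing the absolute log2 value by the square root of F, and CPM uses the scaled library sizes. The labels speak of biological replicates, and p-values reflect only how these samples vary. Counts of libraries of a group differed by more than sampling noise, so each was counted as 1 sample.

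Alternatives were DESeq2 size factors, upper quartile factors, library totals, the DESeq2 1.42.0 Wald test, limma-voom (3.58.1), no filter, a filter of 1 CPM in 3 libraries, fits of 2 groups, a replicate block, removal of a trend with gene length, both of these together, and each library left out. The members, lists, motifs and tests were chosen with earlier results of these data known. The text names all 9 genes and, per list of the pathway and comparison, up to 4 called genes with the smallest p. Lta4h, and some genes whose calls ended with the length trend removed, were named outside this rule. Cyp2c44 was matched under the symbol Cyp2c23. A comparison of protein sequences was planned and not done.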

Additional observations from a re-analysis of the deposited data

How the results depend on the processing

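Counts of called genes among the 9 for EAE against Control stayed at 5 to 7 when any 1 library was left out, beside 6 in the fit reported. For treated against EAE the count was 0 to 3 (0 without EAE replicate 1 or 2, 1 without treated replicate 1 or 2) beside 3, and for treated against Control 0 to 4 (0 without Control replicate 1 or 2 or treated replicate 2 or 3) beside 3. For treated against Control the count was also 1 with limma-voom, 0 with the length trend removed, and, for the other eicosanoid genes, 7 with the length trend removed and 2 to 14 with a library left out, beside 14. Deviations of same-numbered libraries had correlations of -0.187 to 0.123. With 3 libraries per group these cannot decide whether the numbers pair the mice, and the labels give no pairing. With a replicate block, the treated against Control counts were 1 of the 9 and 7 of the other genes, Alox5ap lost its call in treated against EAE (adjusted p = 0.0590), and with the block and the length trend removed the treated against Control counts were 0 and 5. Among the 9 genes, signs turned for Ptgs2 and Pla2g4a, which were not called, and for no other gene tested. For Ptgs2 in EAE against Control the log2 fold change was 0.0146 with limma-voom, 0.0453 with the length trend removed, 0.0695 with the block added, and -0.38 to 0.33 with a library left out. For Ptgs2 it was -0.36 to 0.13 in treated against EAE and -0.48 to 0.24 in treated against Control with a library left out, and 0.0036 there with the block and the length trend removed. For Pla2g4a in treated against Control it was -0.13 to 0.14 with a library left out. The cause of these changes was not tested.

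Over all genes, treated against EAE had 370 calls without EAE replicate 2, 495 without EAE replicate 1, 529 without treated replicate 2 and 575 without treated replicate 1, beside 877. Treated against Control had 629 calls without treated replicate 2, 1016 without treated replicate 3, 1923 without Control replicate 2, 1553 with the length trend removed and 909 with the block as well, beside 3314. EAE against Control had 3540 calls with the block and the length trend removed, beside 6191. At 1 to 3 CPM, Alox5, Ltc4s and Ptgs2 rest on few counts per library, which limits the differences that can be seen.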
